A study of Mus musculus with 7 samples.

Results

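The genes described here encode the poly(A)-binding proteins of the mouse oocyte and the proteins that act directly on them. They were chosen by family and name, not by a threshold on their values, although earlier results of these data were known, and comprise Pabpc1, Pabpc1l, Pabpc4, Pabpn1, Pabpn1l, Paip1, Paip2 and Paip2b, that is 8 of the 25912 entries listed in each library. All 8 were listed once and passed the filter on low values. The study sequenced RNA from oocytes with Smart-seq2, an oligo-dT primed protocol for very small amounts of RNA. Each of the 7 libraries was made from 10 oocytes of 4-week-old females of a C57BL/6 background, primed with pregnant mare serum gonadotropin. The first group held fully grown oocytes at the germinal vesicle (GV) stage, labelled as genotype Control with no treatment (n = 2), although the study's methods describe a DMSO control for GV as well as MII oocytes. The second held oocytes at metaphase II (MII) matured in culture with the solvent DMSO, also of genotype Control (n = 3). The last held MII oocytes cultured with BYBX, a small molecule that binds RNA G-quadruplexes, whose genotype field reads Treat (n = 2). The labels give no targeted allele for any group. The libraries of GV oocytes therefore differ from those of MII with BYBX in both stage and treatment, and only MII with DMSO separates these by label. The study reports that BYBX lowered polar body emission and that treated oocytes had abnormal spindles. The MII groups may thus also differ in how far the oocytes had matured. Whether the libraries of a group came from separate mice was not given, so the tests measure the spread between libraries, which may be technical.

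A poly(A)-binding protein coats the 3′ tail of an mRNA. In the cytoplasm, PABPC proteins bind the tail and the cap-associated factor eIF4G together, which favours translation and shields the mRNA from decay, and they also recruit deadenylases. In the nucleus, PABPN1 binds the growing tail and controls its length. Oocytes are a special case, because a fully grown oocyte no longer transcribes and has to work with stored mRNA, whose tails are lengthened or shortened during meiotic maturation. They use embryonic members of both branches, PABPC1L (also called ePAB) and PABPN1L (also called ePABP2). PABPN1L acts in the cytoplasm with the adaptor BTG4, which brings the CCR4-NOT deadenylase to maternal mRNA. PAIP1 binds PABPC and stimulates translation, whereas PAIP2 and PAIP2B bind PABPC and displace it from the tail. Since the libraries were primed on the tail, a lower value can come from fewer molecules or from shorter tails, and these cannot be told apart here. The stated input was 10 oocytes in every library, and any loss of cells or RNA during handling was not given.

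The values were FPKM that the authors scaled to ERCC spike-in RNA, so that totals were not forced to be equal between libraries. Total FPKM ranged from 402113 to 489569 in GV, from 109732 to 127254 in MII with DMSO and from 201482 to 246710 in MII with BYBX. Read depth was unknown. All 12 oocyte markers examined were above 0 in every library, with summed levels of 12086 to 14692 FPKM in GV, 2682 to 3440 in MII with DMSO and 6222 to 7557 in MII with BYBX. The 12 granulosa and cumulus markers summed to at most 13.7 FPKM in GV, 2.83 in MII with DMSO and 5.0 in MII with BYBX. Between 5 and 10 of the 12 were above 0 in each library. Cyp19a1 was at 1.29 to 4.49 FPKM and Nr5a2 at 0.228 to 4.43 FPKM over the 7 libraries, while Ptx3 was at 0 in all 7. Of 8 erythrocyte markers, 7 were listed, and their entries, of which Hba-a1 and Hba-a2 had 2 each, summed to between 0.00843 and 1.20 FPKM.

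Because BYBX binds RNA G-quadruplexes, the annotated transcripts of the 8 genes (GENCODE vM21, build GRCm38, 1 transcript a gene) were searched for the textbook pattern of 4 runs of at least 3 G separated by loops of 1 to 7 bases, on the transcript's own strand. Of the 8 transcripts, 4 held such a pattern, against 16.7% of 21754 protein-coding transcripts searched in the same way. The matches are printed in full as candidate ligand sites by this pattern, with the runs of G in capitals. Other forms of G-quadruplex and other transcripts were not searched, and binding was not measured in these 7 libraries. They lay in the 5′ UTR of Pabpc4 (chr4:123283587-123283612, plus strand), at both ends of a short stretch early in the coding sequence of Pabpn1 (chr14:54894188-54894215 and chr14:54894243-54894270, plus strand), in the 3′ UTR of Pabpn1l (chr8:122619582-122619598, minus strand), 111 bases before the end of the transcript, and in the long 3′ UTR of Paip2b (chr6:83808717-83808733, minus strand).
Pabpc4, 5′ UTR: GGGGctcGGGGtcgtGGGGGGtGGGG
Pabpn1, coding, upstream: GGGGGctgcGGGcggtcGGGGctccGGG
Pabpn1, coding, downstream: GGGGccggtGGGGaggccGGGGaGGGGG
Pabpn1l, 3′ UTR: GGGcaGGGaGGGGaGGG
Paip2b, 3′ UTR: GGGcGGGttGGGttGGG
A match describes the letters and not a folded structure. In separate experiments, the study reports more G-quadruplex signal in the 3′ UTR of Pabpn1l after BYBX. It also reports that BYBX lowered a reporter carrying that 3′ UTR, with no significant difference once the G-quadruplex sequence was disrupted. Whether that sequence is the match printed here was not examined. The transcripts of Pabpc1, Pabpc1l, Paip1 and Paip2 held no match.

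The other sequence that bears on the readout is the end of the 3′ UTR, where the tail is added. A polyadenylation signal (AATAAA or ATTAAA) was present in the last 50 bases of 7 of the 8 transcripts and of 70.2% of all transcripts, and Pabpn1 was the member without one. The ends of both embryonic members carried ATTAAA, shown here in capitals beside the AATAAA of the somatic Pabpc1. They lie at chr2:164050506-164050533 (plus strand), chr8:122619474-122619501 (minus strand) and chr15:36595665-36595692 (minus strand).
Pabpc1l: ttgctttatatATTAAAaaatgctgcaa
Pabpn1l: gaatgtaaattATTAAActtgaatatat
Pabpc1: attcttgctttAATAAAaattccttaaa
The cytoplasmic polyadenylation element, a U-rich motif that recruits CPEB1 and was searched as TTTTAT or TTTTAAT in the last 150 bases, was found in 0 of the 8 transcripts and in 19.9% of all. These windows hold the annotated ends, and ends used in oocytes were not measured.

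Both MII groups had lower FPKM of the cytoplasmic poly(A)-binding protein genes than GV oocytes on the deposited scale, and the embryonic member Pabpc1l changed most among the PABPC genes. In MII with DMSO compared with GV, 7 of the 8 members were lower and 0 were higher (limma on log2(FPKM + 1), adjusted p under 0.05, which is also the count at an unadjusted p under 0.05), but 3 were higher and 4 lower once each library was centred on its median. Of all 9202 entries tested, 88.3% were lower and 0.272% higher in this comparison on the deposited scale, so that a count of 7 of 8 lies close to the background. Under centring, 48.8% of all entries were higher and 26.7% lower. In MII with BYBX compared with MII with DMSO, 6 members were higher and 0 lower, with 65.2% of all entries higher and 0.0326% lower. The median change of the 8 members was -2.66 on the log2 scale between GV and MII with DMSO, where that of all entries was -1.83, and 1.75 between MII with DMSO and MII with BYBX, where that of all entries was 0.84.

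**Figure D1:**
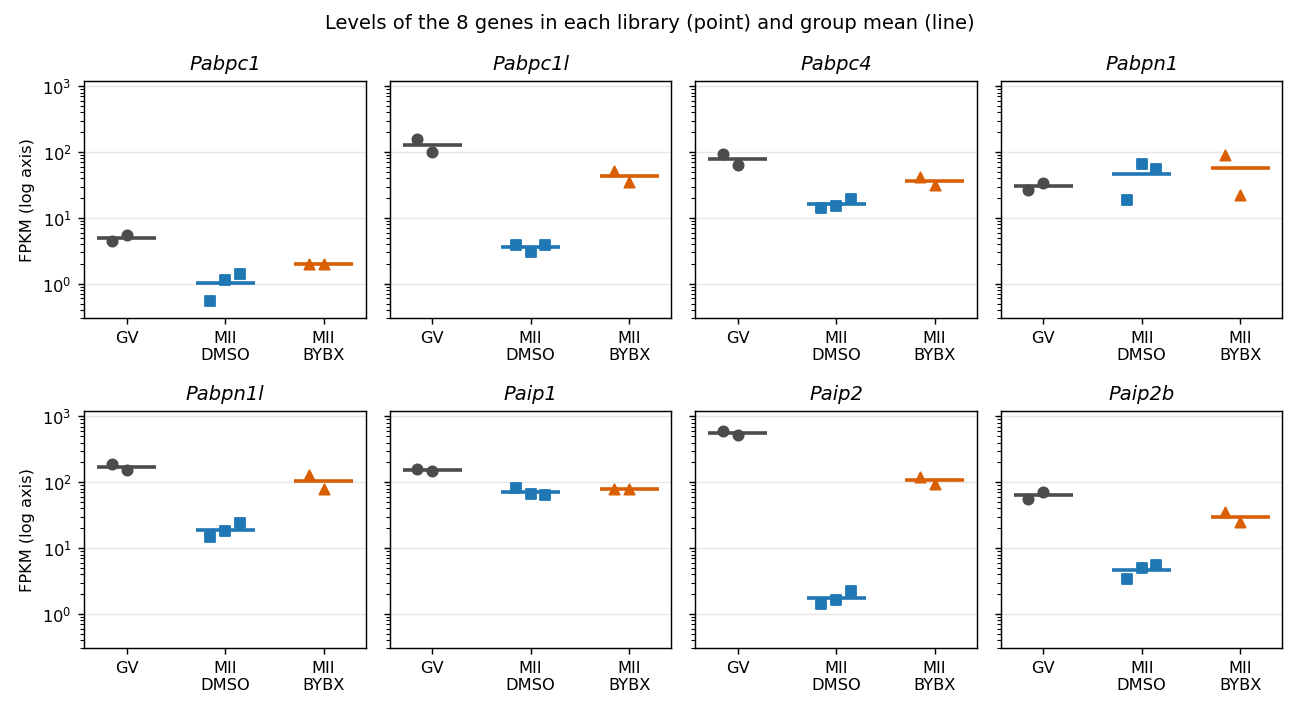
Level of the 8 genes in each of the 7 libraries, as FPKM on a logarithmic axis, with 1 panel a gene, 1 point a library and a bar at the group mean. Paip2 ran from 521 to 609 FPKM in GV to 1.44 to 2.25 FPKM in MII with DMSO, while the points of Pabpn1 overlapped between all groups.

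Pabpc1l (chr2:164025450-164050538, plus strand) encodes the embryonic PABPC of oocytes and is required for female fertility in mice. Its level was 160 and 99.8 FPKM in the GV libraries, 3.91, 3.01 and 3.83 FPKM in MII with DMSO, and 51.1 and 34.9 FPKM in MII with BYBX. The groups did not overlap, and every BYBX library lay between the other groups. Pabpc1l fell by 4.80 on the log2 scale from GV to MII with DMSO (SE 0.28, adjusted p = 2.2e-09) and was higher by 3.24 in MII with BYBX than in MII with DMSO (SE 0.28, adjusted p = 4.9e-07). Relative to GV, MII with BYBX was lower by a log2 change of -1.56 (SE 0.31, adjusted p = 6.7e-04), which was not called after median centring (-0.53, adjusted p = 0.11). In rank among the tested entries, Pabpc1l stood at percentiles 91.7 and 94.2 in GV, 60.9 to 67.8 in MII with DMSO, and 88.6 and 90.5 in MII with BYBX.

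Pabpc4 (chr4:123262351-123298925, plus strand), the inducible cytoplasmic member, was measured at 92.2 and 64.2 FPKM in GV, 14.3, 15.3 and 19.6 FPKM in MII with DMSO, and 41.2 and 31.7 FPKM in MII with BYBX. Again no groups overlapped. On the deposited scale Pabpc4 fell by 2.18 from GV to MII with DMSO (SE 0.27, adjusted p = 3.6e-06) and was higher by 1.11 in MII with BYBX than in MII with DMSO (SE 0.27, adjusted p = 0.0028), whereas with median centring these log2 changes were 0.13 and -0.17, of the opposite sign and not called (adjusted p = 0.56 and 0.45). Relative to the median change of all entries, the log2 changes on the deposited scale differed by -0.34 and 0.27. Its rank hardly moved, staying between percentiles 86.5 and 88.7 in all 7 libraries. Of the stretches of 50 bases in the Pabpc4 transcript, 74.7% also occur in other genes' transcripts, chiefly in the transcribed processed pseudogene Gm10110, so that its level is uncertain under counting of uniquely mapped reads.

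Pabpc1 (chr15:36595661-36609668, minus strand), the main PABPC of somatic cells, was the least abundant member in every group. It was measured at 4.50 and 5.48 FPKM in GV, 0.553, 1.13 and 1.40 FPKM in MII with DMSO, and 2.03 FPKM in both libraries of MII with BYBX. Pabpc1 fell by 1.58 on the log2 scale from GV to MII with DMSO (SE 0.22, adjusted p = 1.4e-05), but was higher by 0.72 after median centring (adjusted p = 0.013). Its difference between MII with BYBX and MII with DMSO was 0.60 (SE 0.22, adjusted p = 0.030), was of the opposite sign with median centring (-0.68, adjusted p = 0.024), and was not called without MII with DMSO replicate 1 (adjusted p = 0.17), MII with DMSO replicate 2 (0.051), MII with BYBX replicate 1 (0.079) or MII with BYBX replicate 2 (0.068), nor with no filter on level (0.098). At levels this low the added 1 FPKM makes fold changes smaller than those of the FPKM themselves. The processed pseudogene Gm16580 and other genes share 20.7% of its stretches of 50 bases. The remaining cytoplasmic family members Pabpc2, Pabpc4l, Pabpc5 and Pabpc6 were at or below 0.124 FPKM in all 7 libraries and were not tested.

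Among the PABPN1 type genes, the embryonic member differed between MII with DMSO and both other groups, and the somatic one was not called in any comparison on the deposited scale. Pabpn1l (chr8:122619471-122622739, minus strand) was at 191 and 154 FPKM in GV, 14.7, 17.9 and 23.8 FPKM in MII with DMSO, and 130 and 79.4 FPKM in MII with BYBX. These groups did not overlap. Pabpn1l fell by 3.15 on the log2 scale from GV to MII with DMSO (SE 0.29, adjusted p = 2.0e-07) and was higher by 2.40 in MII with BYBX than in MII with DMSO (SE 0.29, adjusted p = 1.0e-05). Between MII with BYBX and GV the difference was -0.75 (SE 0.32, 95% confidence interval -1.44 to -0.05, adjusted p = 0.053), which missed the threshold and turned to 0.28 after median centring. Without MII with BYBX replicate 1, which leaves 1 library in that group, this difference was -1.10. It passed the threshold without MII with DMSO replicate 1 (adjusted p = 0.035) or MII with DMSO replicate 3 (adjusted p = 0.048). The threshold was also passed with a filter at 5 FPKM and with no intensity trend.

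Pabpn1 (chr14:54892500-54898169, plus strand), the nuclear member, was at 26.5 and 34.0 FPKM in GV, 18.7, 65.4 and 55.4 FPKM in MII with DMSO, and 90.3 and 22.6 FPKM in MII with BYBX. All groups overlapped, and 1 library of each MII group lay below both GV libraries. The log2 change was 0.43 from GV to MII with DMSO (SE 0.54, 95% confidence interval -0.73 to 1.59, adjusted p = 0.45) and 0.15 from MII with DMSO to MII with BYBX (SE 0.54, 95% confidence interval -1.01 to 1.31, adjusted p = 0.81). Without MII with DMSO replicate 1 the former was 0.98 and passed the threshold (adjusted p = 0.019), and without MII with BYBX replicate 2 the difference between MII with BYBX and GV was 1.56 (adjusted p = 0.021). Against the general loss of signal its relative position was high, since the change from GV to MII with DMSO lay above that of 99.5% of all tested entries and was 2.74 after median centring (adjusted p = 0.0018). Of the stretches of 50 bases in the Pabpn1 transcript, 61.5% also occur in other genes' transcripts. The main one is the gene model Gm20521, which reads through into Pabpn1. The values of Pabpn1 thus depend in part on how reads were divided between these models. Zc3h14, the gene of another nuclear poly(A)-binding protein with zinc fingers, was at 13.5 ± 1.62 FPKM in GV (SD, n = 2), 5.58 ± 0.665 FPKM in MII with DMSO (n = 3) and 7.13 ± 0.515 FPKM in MII with BYBX (n = 2), and fell by 1.14 on the log2 scale from GV to MII with DMSO (adjusted p = 3.6e-04), but was higher by 1.16 after median centring (adjusted p = 2.6e-04).

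The genes of PABPC-interacting proteins held both the largest and the smallest called change of the 8 between GV and MII with DMSO. Paip2, the major inhibitor of PABPC, was the most abundant member in GV at 609 and 521 FPKM. It was at 1.44, 1.63 and 2.25 FPKM in MII with DMSO and at 121 and 93.8 FPKM in MII with BYBX. On average the level in MII with DMSO was 0.314% of that in GV, and the mean in MII with BYBX was 19.0% of it. Paip2 fell by 7.68 on the log2 scale from GV to MII with DMSO (SE 0.26, adjusted p = 2.4e-10), and only 0.0652% of tested entries had a lower value in this comparison. It was higher by 5.29 in MII with BYBX than in MII with DMSO (SE 0.26, adjusted p = 2.4e-08), above the change of 99.9% of entries, and was below GV by a log2 change of -2.39 (SE 0.28, adjusted p = 6.3e-05). Its percentile was 98.9 in both GV libraries, 47.9 to 54.1 in MII with DMSO and 96.5 in both libraries of MII with BYBX. With median centring Paip2 was called in all 3 comparisons in the same direction, with log2 changes of -5.37, 4.01 and -1.37.

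Paip2b (chr6:83805401-83831741, minus strand), a paralog with the same inhibitory action, was at 56.1 and 70.4 FPKM in GV, 3.42, 4.93 and 5.60 FPKM in MII with DMSO, and 34.9 and 25.2 FPKM in MII with BYBX. No groups overlapped. Paip2b fell by 3.52 on the log2 scale from GV to MII with DMSO (SE 0.27, adjusted p = 2.8e-08) and was higher by 2.46 in MII with BYBX than in MII with DMSO (SE 0.27, adjusted p = 3.9e-06). Relative to GV, MII with BYBX differed by -1.06 (SE 0.30, adjusted p = 0.0064), against -0.03 after median centring (adjusted p = 0.94). Among the inhibitor genes Paip2b was thus the less abundant in GV and the more abundant in MII with DMSO.

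Paip1 (chr13:119428601-119458218, plus strand), the stimulator of translation, had the highest share of its GV mean in MII with DMSO (46.1%) among the 7 members called lower on the deposited scale. It was at 157 and 147 FPKM in GV, 80.8, 66.0 and 63.2 FPKM in MII with DMSO, and 79.3 and 79.1 FPKM in MII with BYBX. The MII groups overlapped each other and both lay below GV. Paip1 fell by 1.11 on the log2 scale from GV to MII with DMSO (SE 0.24, adjusted p = 6.5e-04), but was higher by 1.19 with median centring (adjusted p = 4.5e-04) and by 0.75 when libraries were set to the same total (adjusted p = 0.0099). Between MII with BYBX and MII with DMSO the difference was 0.18 (SE 0.24, 95% confidence interval -0.34 to 0.70, adjusted p = 0.51), which was -1.09 after median centring (adjusted p = 0.0018). A difference in Paip1 between the MII groups above 0.70 on the log2 scale was thus outside the interval on the deposited scale.

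**Figure D2:**
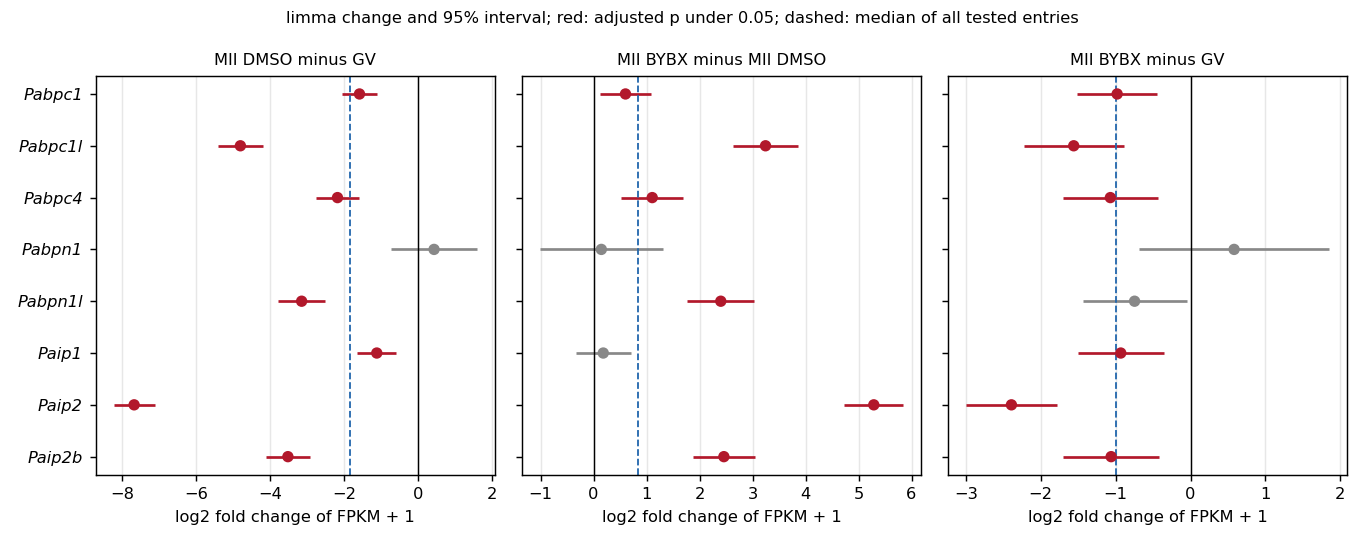
Log2 fold change of FPKM + 1 for the 8 genes in the 3 comparisons, with 95% confidence intervals from limma (red for an adjusted p under 0.05, grey otherwise) and a dashed line at the median of all 9202 tested entries. Values are on the deposited scale. Paip2 and Pabpc1l lie farthest from the line in MII with DMSO minus GV (-7.68 and -4.80) and in MII with BYBX minus MII with DMSO (5.29 and 3.24), and median centring reverses the sign of Pabpc1 and Paip1 in all 3 comparisons, of Pabpc4 in these 2, of Pabpn1 in MII with BYBX minus MII with DMSO and of Pabpn1l in MII with BYBX minus GV.

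The order of the genes by FPKM, a measure per transcript length, differed between the groups. In GV it ran from Paip2 through Pabpn1l, Paip1, Pabpc1l, Pabpc4, Paip2b and Pabpn1 to Pabpc1. In that order the ranges of Pabpn1l and Paip1, of Paip1 and Pabpc1l, and of Pabpc4 and Paip2b overlapped. In MII with DMSO, Paip1 led with 70.0 ± 9.42 FPKM (SD, n = 3), followed by Pabpn1, Pabpn1l and Pabpc4, whose ranges overlapped from each neighbour to the next, and then by Paip2b and Pabpc1l, which overlapped, Paip2 and Pabpc1. With BYBX, Paip2 with 107 ± 19.3 FPKM and Pabpn1l with 105 ± 35.9 FPKM (SD, n = 2) overlapped at the top, Paip1, Pabpn1, Pabpc1l, Pabpc4 and Paip2b followed with each overlapping the next, and Pabpc1 was last. In percent of the GV mean, MII with BYBX ranged from 19.0% for Paip2 through 33.1% for Pabpc1l to 60.8% for Pabpn1l, leaving Pabpn1 aside.

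Ratios between members within a library do not depend on the spike-in scale. Pabpc1l made up 62.3% and 58.9% of the summed FPKM of Pabpc1, Pabpc1l and Pabpc4 in GV, 20.9%, 15.4% and 15.4% in MII with DMSO, and 54.2% and 50.9% in MII with BYBX. Pabpc4 held most of the remainder, with 35.9% and 37.9% in GV, 76.2%, 78.8% and 78.9% in MII with DMSO, and 43.7% and 46.2% in MII with BYBX. Per length, the most abundant PABPC transcript was thus Pabpc1l in GV and MII with BYBX and Pabpc4 in MII with DMSO, subject to the shared sequence of Pabpc4. The share of Pabpc1l differed by -43.4 percentage points between MII with DMSO and GV and by 35.3 points between the MII groups with BYBX and DMSO (p = 0.1 for each by an exact two-sided permutation test, the smallest that 2 against 3 libraries allow). Between MII with BYBX and GV it differed by -8.10 points without overlap (exact permutation p = 0.33, the smallest that 2 against 2 allow). No ratio in this paragraph or the next could reach a p under 0.05. The sum of the 3 genes was 213 ± 61.7 FPKM in GV (SD, n = 2), 21 ± 3.31 FPKM in MII with DMSO (n = 3) and 81.5 ± 18.2 FPKM in MII with BYBX (n = 2).

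Pabpn1l made up 87.8% and 81.9% of the summed FPKM of Pabpn1 and Pabpn1l in GV, 44.0%, 21.5% and 30.0% in MII with DMSO, and 59.0% and 77.8% in MII with BYBX. The groups did not overlap although Pabpn1 itself varied widely, and the mean differences were -53.0 points between MII with DMSO and GV, 36.6 points between MII with BYBX and MII with DMSO, and -16.4 points between MII with BYBX and GV (exact permutation p = 0.1, 0.1 and 0.33). The summed FPKM of the inhibitor genes Paip2 and Paip2b over that of the 3 PABPC genes was 2.59 and 3.49 in GV, 0.260, 0.337 and 0.317 in MII with DMSO, and 1.65 and 1.73 in MII with BYBX. Inhibitor FPKM thus exceeded PABPC FPKM in GV and MII with BYBX and was below it in MII with DMSO. This is subject to the shared sequence of Pabpc4, which is part of the PABPC sum. The mean ratio differed by -2.73 between MII with DMSO and GV, by 1.39 between MII with BYBX and MII with DMSO and by -1.34 between MII with BYBX and GV, at the same exact permutation p of 0.1, 0.1 and 0.33. The ratio of Paip1 to the 3 PABPC genes had the opposite order, at 0.611 and 0.868 in GV, 4.31, 3.39 and 2.55 in MII with DMSO, and 0.841 and 1.15 in MII with BYBX, and the ranges of GV and MII with BYBX overlapped.

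**Figure D3:**
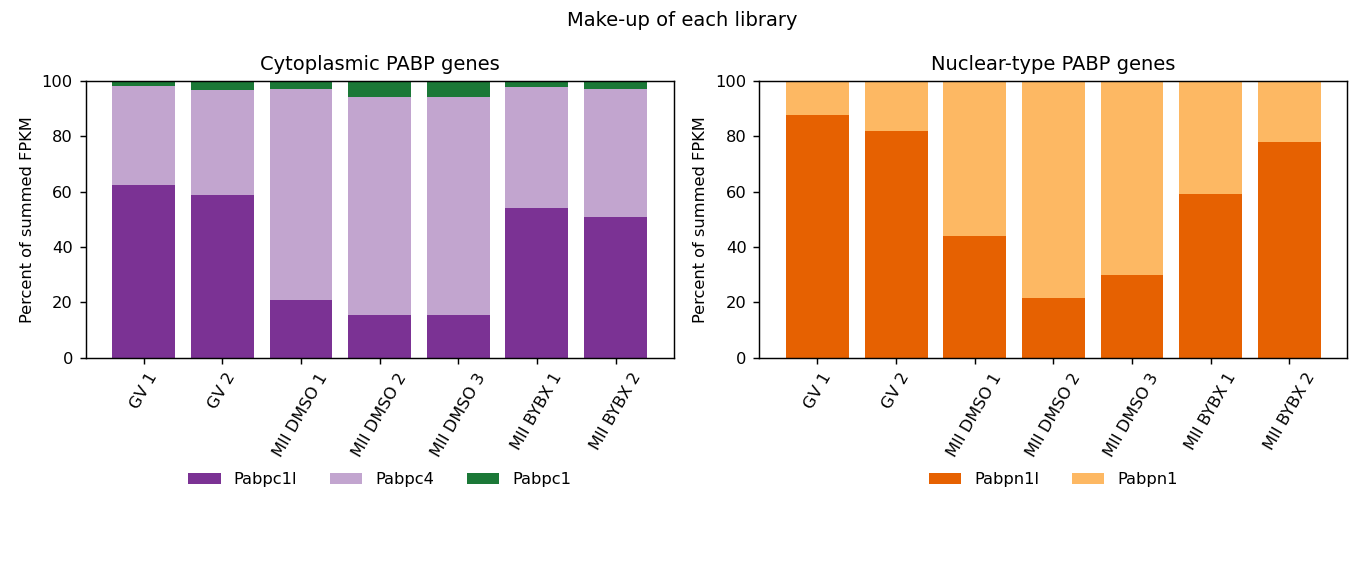
Make-up of the summed FPKM of the cytoplasmic genes (Pabpc1, Pabpc1l, Pabpc4) and of the PABPN1 type genes (Pabpn1, Pabpn1l) as stacked bars in percent, 1 bar a library. Pabpc1l holds 50.9% to 62.3% of the cytoplasmic sum in GV and MII with BYBX, and 15.4% to 20.9% in MII with DMSO.

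**Figure D4:**
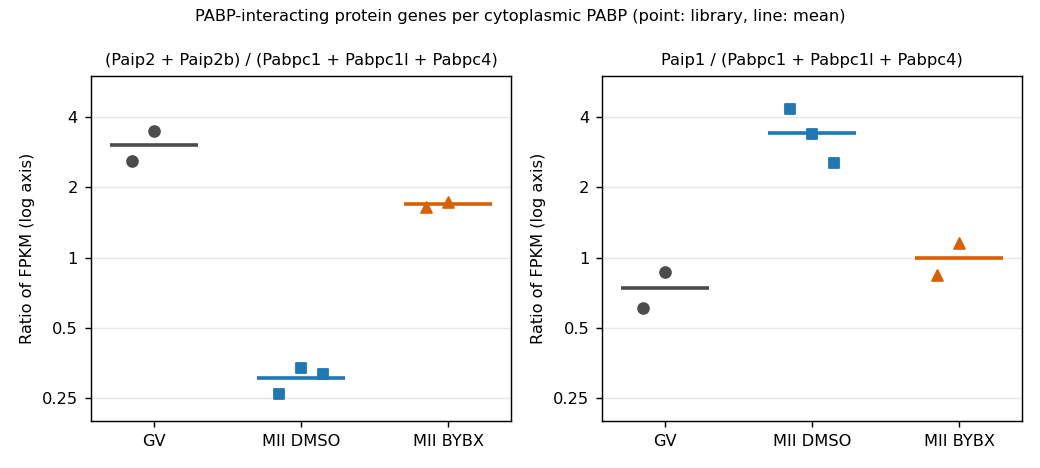
Ratio of summed Paip2 and Paip2b FPKM, and of Paip1 FPKM, to the summed FPKM of Pabpc1, Pabpc1l and Pabpc4, on a logarithmic axis with 1 point a library and a bar at the group mean. The inhibitor ratio lies above 1 in GV and MII with BYBX (1.65 to 3.49) and between 0.260 and 0.337 in MII with DMSO, and the Paip1 ratio is highest in MII with DMSO (2.55 to 4.31).

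The number of members called depended on the scale. On the deposited scale the median log2 change over all entries was -1.83 in MII with DMSO minus GV, 0.84 in MII with BYBX minus MII with DMSO and -0.99 in MII with BYBX minus GV. With median centring it was 0.47, -0.44 and 0.04. Under centring, Pabpc1l, Pabpn1l, Paip2 and Paip2b had lower levels in MII with DMSO than GV oocytes (4 members, with 26.7% of all entries lower), and Pabpc1, Pabpn1 and Paip1 were higher (3 members, with 48.8% of all entries higher). The same 4 genes, Pabpc1l, Pabpn1l, Paip2 and Paip2b, were higher in MII with BYBX than in MII with DMSO under centring (18.4% of all entries higher), and Pabpc1 and Paip1 were lower (43.9% lower). Between MII with BYBX and GV, 6 members were lower and 0 higher on the deposited scale (69.2% and 0.315% of all entries; 7 lower and 0 higher at an unadjusted p under 0.05), and under centring Paip2 alone was lower (-1.37, adjusted p = 0.010, with 13.6% of all entries lower). GV and MII with BYBX were both compared with the same MII with DMSO libraries, so that opposite signs in those comparisons are not independent.

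**Figure D5:**
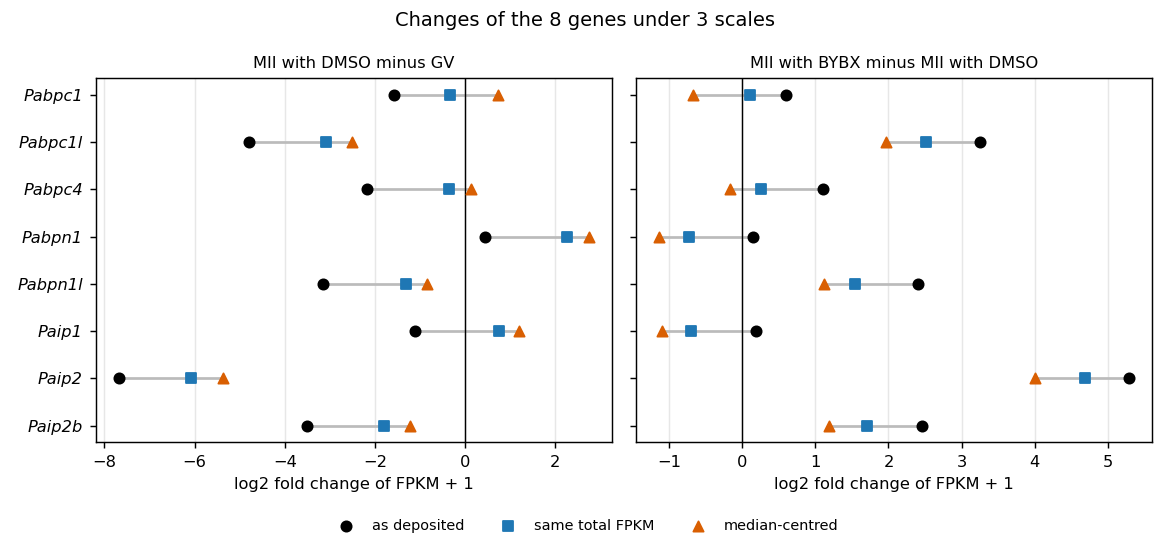
Log2 fold change of FPKM + 1 of the 8 genes as deposited, with all libraries set to the same total FPKM, and centred on each library's median, for MII with DMSO minus GV and MII with BYBX minus MII with DMSO. Pabpc1l, Pabpn1l, Paip2 and Paip2b keep their sign on all 3 scales, whereas Pabpc1, Pabpc4 and Paip1 cross 0 in both panels and Pabpn1 crosses 0 in the right panel.

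The proteins that bind PABPC or act through it were examined as a list of 24 genes, of which 23 were tested. In MII with DMSO compared with GV, 20 were lower and 1 higher, which became 6 lower and 15 higher under median centring, with a median log2 change of -1.62 on the deposited scale. Over all entries 88.3% were lower and 0.272% higher, and 26.7% and 48.8% under centring. The gene that was higher was Atxn2l, which encodes an RNA-binding ataxin 2 relative of stress granules, at 32.1 ± 13.1 FPKM in GV (SD, n = 2), 62.2 ± 5.43 FPKM in MII with DMSO (n = 3) and 91.5 ± 41.2 FPKM in MII with BYBX (n = 2), a log2 change of 0.99 (adjusted p = 0.011) and, between MII with BYBX and GV, of 1.47 (adjusted p = 0.0026). Without GV replicate 2, or with no filter on level, 0 genes of the list were higher in MII with DMSO than in GV. The largest falls by the naming rule were those of Eif4b, an initiation factor that works with the helicase eIF4A, at 88.6 ± 12.1, 3.07 ± 0.545 and 25.9 ± 4.34 FPKM in GV, MII with DMSO and MII with BYBX (log2 change -4.46 from GV to MII with DMSO), and of Hdlbp, which encodes the RNA-binding protein vigilin, at 43.3 ± 12.1, 2.43 ± 0.0696 and 15.3 ± 2.83 FPKM (log2 change -3.66).

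Of these 23 genes, 11 were higher in MII with BYBX than in MII with DMSO and 0 lower, and 4 were higher and 12 lower under centring, with a median log2 change of 0.72. The shares over all entries were 65.2% higher and 0.0326% lower, and 18.4% and 43.9% under centring. Eif4b (2.72) and Hdlbp (2.24) had the largest rises. Neither translation factor eIF4G1 nor eIF4G3, the partners of PABPC at the cap, had a gene that passed the threshold here, with log2 changes of 0.83 for Eif4g1 (adjusted p = 0.090) and 0.57 for Eif4g3 (adjusted p = 0.055), although Eif4g3 was lower after median centring (-0.71, adjusted p = 0.0086). Compared with GV, 14 were lower and 1 higher in MII with BYBX, against 2 lower and 5 higher under centring, where all entries had 69.2% lower and 0.315% higher, and 13.6% and 15.2% under centring. The largest falls in that comparison were those of Eif4b (-1.74) and Tob1 (-1.72), an adaptor between PABPC and the CCR4-NOT deadenylase, which was at 10.6 ± 2.44 FPKM in GV, 0.0832 ± 0.0799 FPKM in MII with DMSO and 2.51 ± 0.471 FPKM in MII with BYBX.

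The machinery of nuclear cleavage and polyadenylation, in which PABPN1 takes part, was examined as 20 genes, of which 19 were tested. In MII with DMSO compared with GV, 18 were lower and 0 higher, and 6 lower and 8 higher under centring, with a median log2 change of -2.14, beside 88.3% lower over all entries and 26.7% lower and 48.8% higher under centring. The gene that did not pass on the deposited scale was Ppp1cb, a phosphatase catalytic subunit (-0.25, adjusted p = 0.32), which was higher by 2.06 after centring (adjusted p = 2.1e-05). The largest falls were those of Cpsf4, a subunit that reads the polyadenylation signal, at 58.6 ± 10.7, 1.19 ± 0.0946 and 12.5 ± 1.50 FPKM in GV, MII with DMSO and MII with BYBX (log2 change -4.76), and Papolg, a poly(A) polymerase, at 47.6 ± 8.82, 0.860 ± 0.106 and 6.27 ± 1.71 FPKM (log2 change -4.70). Between the MII groups, 15 were higher and 0 lower with BYBX (16 and 0 at an unadjusted p under 0.05), against 5 higher and 7 lower under centring (65.2% of all entries higher, and 18.4% higher and 43.9% lower under centring), led by Nudt21, a subunit of cleavage factor I (54.6 ± 7.10, 2.46 ± 0.527 and 23.8 ± 4.37 FPKM, log2 change 2.84) and Cpsf4 (2.62). Compared with GV, 13 were lower and 0 higher in MII with BYBX (14 and 0 at an unadjusted p under 0.05), against 2 lower and 5 higher under centring (69.2% of all entries lower, and 13.6% lower and 15.2% higher under centring), and Papolg (-2.75) and Cpsf4 (-2.13) were lowest. The other list median changes were 0.95 and -0.90 in these comparisons.

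The members did not share a single pattern over the 7 libraries. As a measure of likeness, the root mean square difference between the centred log2(FPKM + 1) of a pair was smallest for Pabpn1l and Paip2b (0.248), followed by Pabpc1 and Paip1 (0.361) and Pabpc1 and Pabpc4 (0.367), and largest for Pabpn1 and Paip2 (3.52). The inhibitor paralogs Paip2 and Paip2b differed by 1.81 and the PABPN1 type paralogs by 1.62. Among all tested entries, those nearest to Pabpc1l included Rpn2 (0.0955) and Hps6 (0.115), and those nearest to Pabpn1l were Dusp10 (0.101), Crip2 (0.120) and Ankrd37 (0.121). Paip2 had the most distant neighbours of the 8, Bud31 (0.167), Timm17a (0.215) and Speer5-ps1 (0.236). Paip1 had the closest, Snx16 (0.0578), Strn (0.0713) and 4933408N05Rik (0.0790). Pabpc4 was nearest to Cep95 (0.0775), Tonsl (0.0844) and Fank1 (0.0853), and Paip2b to Tctex1d2 (0.0811), Ica1l (0.102) and Fis1 (0.115). Pabpc1 was nearest to Acp1 (0.101), Zbed4 (0.111) and Nfyb (0.120), and Pabpn1, whose pattern follows the scatter within the MII groups, to Fam241b (0.0849), Mvb12b (0.121) and Ppp1r14b (0.168).

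Set beside the sequence features, the 4 genes with a G-quadruplex pattern in their transcript (Pabpc4, Pabpn1, Pabpn1l and Paip2b) had log2 changes between MII with BYBX and MII with DMSO of 1.11, 0.15, 2.40 and 2.46, of which the first 2 were of the opposite sign under median centring. The 4 genes without one (Pabpc1, Pabpc1l, Paip1 and Paip2) had changes of 0.60, 3.24, 0.18 and 5.29, with Pabpc1 and Paip1 of the opposite sign under centring. The ranges of these changes overlapped. Whether a G-quadruplex pattern bears on the difference between the MII groups was not tested.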

How the data were processed

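FPKM values of 7 Smart-seq2 libraries were used as deposited. Per the submitters' processing notes and the study's methods, the authors trimmed reads with Trim Galore 0.6.7, mapped them to mm10 with HISAT2 2.2.1, counted uniquely mapped reads on UCSC gene models with Cufflinks 2.2.1 as FPKM, and normalized FPKM to ERCC spike-ins and, between batches, to GV samples. Factors and batch membership were not given in the sources used here, so batch and group could not be separated. Of 25912 entries, 4 lacked a value and were dropped. Entries were tested if their group means averaged 1 FPKM or more (9202 entries).

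Groups were taken from the labels. log2(FPKM + 1) was fitted with limma 3.58.1 (R 4.3.3, intensity trend, 3 group means, 4 residual degrees of freedom) with Benjamini-Hochberg adjustment over all tested entries and a threshold of 0.05. The added 1 FPKM understates changes of low genes. Ratios were compared with exact two-sided permutation tests. The fit was tested on simulated data. Figures used Python 3.11.15 and matplotlib 3.10.9. The sequences came from the GRCm38 genome with GENCODE vM21 annotation.

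The members and lists were chosen with earlier results of these data known. Text names all 8 members, of each list and comparison the 2 largest rises and falls among called entries that reached 10 FPKM in either group, and the 3 nearest entries of each member, 1 of which is not reported here. Eif4g1, Eif4g3 and Ppp1cb were named after their values were seen. Alternatives were another pseudocount (0.1), filters (5 FPKM or none), scales, a fit of only the groups compared, no trend, a replicate block and leaving out each library. Replicate numbers are shared between groups, but nothing says that they mark a shared animal or day.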

Additional observations from a re-analysis of the deposited data

How the results depend on the processing

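Under all 15 alternatives, Pabpc1l, Pabpn1l, Paip2 and Paip2b kept their direction and call in MII with DMSO compared with GV and in MII with BYBX compared with MII with DMSO. Paip2 did so between MII with BYBX and GV as well. Rescaling, which sets libraries to the same total FPKM or the same median log2 value, changed the call or direction of other members. The median change over all entries was then -0.56, 0.34 and -0.17 in the 3 comparisons with the same total. With centring it was 0.47, -0.44 and 0.04. The sign of a rescaled change is thus not its position relative to the typical entry. For MII with DMSO compared with GV, 2 members were higher and 4 lower with the same total FPKM (23.3% and 49.5% of all entries). With median centring these were 3 and 4 (48.8% and 26.7%). For MII with BYBX compared with MII with DMSO, 4 members were higher and 1 lower with the same total (39.9% and 8.22%). With centring these were 4 and 2 (18.4% and 43.9%). For MII with BYBX compared with GV, 0 were higher and 1 lower with either (15.2% and 13.6% with centring). Values of the opposite sign in MII with DMSO minus GV were, with centring, 0.72 for Pabpc1, 0.13 for Pabpc4 and 1.19 for Paip1, and with the same total 0.75 for Paip1. In MII with BYBX minus MII with DMSO they were, with centring, -0.68 for Pabpc1, -0.17 for Pabpc4, -1.13 for Pabpn1 and -1.09 for Paip1, and with the same total -0.73 for Pabpn1 and -0.70 for Paip1. In MII with BYBX minus GV they were, with centring, 0.046 for Pabpc1, 0.28 for Pabpn1l and 0.094 for Paip1, and with the same total 0.24 for Pabpn1l and 0.052 for Paip1. Adding 1 FPKM to each gene moved the inhibitor to PABPC ratio difference between MII with BYBX and MII with DMSO from 1.39 to 1.31.

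Leaving out 1 MII with DMSO library in turn gave 0 to 1 members higher and 7 lower in MII with DMSO compared with GV. Of all entries, 0.141% to 0.576% were higher and 85.4% to 86.4% lower in these fits. Between the MII groups, 5 to 6 members were higher with BYBX and 0 lower, with 58.4% to 60.6% of all entries higher. Calls between MII with BYBX and GV also changed when a library was left out. Only 7 of 14 alternatives left the call and direction of Pabpc1 between the MII groups as they were, and 8 of 15 that of Pabpn1l between MII with BYBX and GV. Leaving out a library and rescaling changed both. The result for Pabpc1 also changed with no filter on level, and that for Pabpn1l with a filter at 5 FPKM or no intensity trend. Without MII with BYBX replicate 2, Pabpn1 differed by 1.12 from MII with DMSO and by 1.56 from GV, and Pabpc4 (adjusted p = 0.054) and Paip2b (0.064) were no longer called against GV, nor was Pabpc4 without GV replicate 1 (0.063). Pabpn1 changed sign to -0.40 in MII with BYBX minus MII with DMSO without MII with DMSO replicate 1, to -0.83 without MII with BYBX replicate 1, and to -0.39 in MII with BYBX minus GV without the latter. The cause was not tested.

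Deviations of libraries with the same replicate number correlated at 0.487 and 0.282 between MII with DMSO and GV, at -0.601 and -0.348 between MII with BYBX and MII with DMSO, and at -0.330 between MII with BYBX and GV, a single observation since both groups hold 2 libraries. The signs differed between comparisons and no label ties a number to an animal or day, so the libraries were not treated as paired. A replicate block gave 7 lower, 6 higher and 6 lower members in the 3 comparisons, with 0 in the other direction. Under the block, 84.5% of all entries were lower in the first comparison and 57.2% higher in the second. With the BYBX numbers crossed, chosen after seeing the data, the member counts were 7, 6 and 7. Shares over all entries were not computed for that setting. In the main fit they were 88.3% lower, 65.2% higher and 69.2% lower. Unknown depth and groups of 2 or 3 libraries limit what differences in Pabpc1 and Pabpn1 could be seen.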
